A study of Mus musculus with 7 samples.

Results

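Histone and DNA modifying enzymes add or remove the small chemical groups (methyl and acetyl) that mark chromatin. Lysine methyltransferases of the Kmt and Setd families and the Polycomb enzymes Ezh1 and Ezh2 write methyl marks on histones, and the Kdm demethylases remove them. Acetyltransferases (Kat) and deacetylases (Hdac, and the NAD-dependent sirtuins) set histone acetylation, Prmt enzymes methylate arginine, Dnmt enzymes methylate cytosine in DNA, and Tet dioxygenases oxidise methylcytosine. Several of these enzymes, such as Ezh2, Kdm6b and Dnmt1, are known from work on the identity and proliferation of pancreatic β-cells, and most act inside multi-subunit complexes.

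The genes were chosen by symbol: those that begin with Kmt, Kdm, Setd, Ezh, Hdac, Kat, Sirt, Tet, Dnmt or Prmt and a digit, without the Y-linked Kdm5d and without pseudogenes and antisense entries. Of 35013 symbols in the table, 86 matched the pattern and 78 were left after 8 exclusions. A mean of at least 1 CPM (reads of a gene scaled to a common library size) over the 7 libraries was met by 72 genes, namely 17 lysine methyltransferases, 16 lysine demethylases, 8 acetyltransferases, 11 classical deacetylases, 7 sirtuins, 7 arginine methyltransferases and 6 DNA methylation enzymes. The 6 genes under that floor were Dnmt3c and Dnmt3l, both at 0 counts in every library, and Kdm4d, Kdm4dl, Prmt8 and Setd4. Just outside the floor lay Setd4 (mean 0.539 CPM) and Prmt8 (0.246 CPM), and just inside it lay Dnmt3b (1.30 CPM) and Kdm8 (1.57 CPM). All 72 genes passed the filter on low counts and were tested in each comparison.

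The libraries were poly-A RNA-seq libraries of sorted mouse β-cells, 1 per mouse. The KO_db/db group (2 mice) was Aldh1a3 fl/fl and Lepr db/db, so that both copies of Aldh1a3, a retinaldehyde dehydrogenase, can be recombined. The db/db control group (2 mice) was Aldh1a3 fl/+ and Lepr db/db, and the lean db/+ control group (3 mice) was Aldh1a3 fl/+ and Lepr db/+. All groups also carried RIP-CreHerr, a Cre driven by the rat insulin promoter, and the reporter tdT fl/+, so both control groups were heterozygous for Aldh1a3 where Cre had acted. The db mutation removes the signalling leptin receptor, and homozygous mice become obese and diabetic. All mice were fasted adults. The study states both sexes for its experiments in general, and the labels give no sex per mouse.

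Total counts ran from 27496645 to 35852785 per library. Aldh1a3 stood at 4.97 and 7.89 CPM in KO_db/db against 98.4 and 194 CPM in db/db, in the direction of the labels. Summed over 18 acinar markers, the first KO_db/db library held 121456 CPM and the second 10164 CPM, against 199 to 357 CPM in db/db and 80.1 to 224 CPM in db/+. The summed level of 10 β-cell markers, insulin included, was 395156 to 442753 CPM in db/+ and 201612 to 297817 CPM in the other libraries, and 9 of the 10 were called lower in db/db than in db/+. Of the other islet and duct markers, 2 of 5 α-cell markers tested were higher in db/db (summed level 2805 and 3189 CPM, against 1188 to 1759 CPM in db/+), 2 of 3 δ-cell markers were lower (87.2 and 169 CPM, against 381 to 2329 CPM) and 2 of 3 ductal markers tested were higher (275 and 417 CPM, against 179 to 194 CPM). The α-cell sum was higher through Ttr and Gc. Glucagon (Gcg) itself was not, at 602 and 349 CPM in db/db against 381 to 1181 CPM in db/+. The ductal sum was higher through Krt7 and Spp1, while Krt19, Sox9 and Cftr were at or under 1.22 CPM in these groups. Only the third db/+ library held Y-linked transcripts in number (2574 counts of Ddx3y, Uty and Eif2s3y, against 3 to 6 in each other library). The part of these differences in the results below was not tested unless a value without that library is given. In bulk RNA, a change in the share of cells that use a gene and a change of its RNA per cell cannot be told apart.

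Levels are given as CPM on the scale of the TMM method over all 7 libraries, in the order db/+, db/db, KO_db/db. Fold changes are on the log2 scale with their standard error (SE). Every adjusted p is from edgeR's quasi-likelihood test on the libraries of the groups compared, with Benjamini-Hochberg adjustment over all genes tested. A gene was called at an adjusted p under 0.05. The db/db and KO_db/db comparisons with db/+ share the db/+ libraries, and their values are set side by side without an overlap between them.

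RefSeq start sites on GRCm38.p6 were found for 60 of the 72 genes, with 84 windows of the 250 bases before a start. Windows to show were picked only among genes with a single start, which left out Hdac9, the gene with the largest fall. Kmt2a was also picked by its rise, with 4 GC boxes and 29 CpG, and is not shown. The windows below are shown because their genes had the largest rises in db/db among the methyltransferases (Kmt2d) and the DNA methylation enzymes (Tet2), or fell there (Prmt2 and Hdac6). They are written from the 5′ to the 3′ end of the gene's own strand, which is the minus strand for each. Capitals mark matches on either strand to short motifs. The GC box was searched as GGGCGG. For ETS factors the letters were CCGGAAG. The E-box was read as CACGTG. A nuclear receptor half-site, also bound by retinoic acid receptors, was AGGTCA. The TATA box was TATAAA. The cAMP response element was TGACGTCA, and the palindromic NRF1 site was searched as well. The E-box, the half-site, the cAMP response element and the NRF1 site had no match in the 4 windows shown.
Kmt2d, chr15:98871206-98871455: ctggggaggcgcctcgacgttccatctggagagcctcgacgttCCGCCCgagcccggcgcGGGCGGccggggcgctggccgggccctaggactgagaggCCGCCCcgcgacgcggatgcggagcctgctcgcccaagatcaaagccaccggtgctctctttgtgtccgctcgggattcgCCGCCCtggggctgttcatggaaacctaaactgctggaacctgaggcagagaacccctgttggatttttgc
Tet2, chr3:133544391-133544640: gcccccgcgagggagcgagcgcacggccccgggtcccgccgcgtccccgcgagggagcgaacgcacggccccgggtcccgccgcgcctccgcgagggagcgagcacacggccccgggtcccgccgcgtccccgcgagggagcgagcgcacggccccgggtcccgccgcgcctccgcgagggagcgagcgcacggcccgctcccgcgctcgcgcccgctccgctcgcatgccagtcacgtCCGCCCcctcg
Prmt2, chr10:76237866-76238115: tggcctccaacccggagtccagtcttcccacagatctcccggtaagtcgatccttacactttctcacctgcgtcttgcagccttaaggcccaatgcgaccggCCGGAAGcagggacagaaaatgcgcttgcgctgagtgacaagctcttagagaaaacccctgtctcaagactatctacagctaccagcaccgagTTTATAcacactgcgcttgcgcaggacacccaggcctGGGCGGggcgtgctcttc
Hdac6, chrX:7947890-7948139: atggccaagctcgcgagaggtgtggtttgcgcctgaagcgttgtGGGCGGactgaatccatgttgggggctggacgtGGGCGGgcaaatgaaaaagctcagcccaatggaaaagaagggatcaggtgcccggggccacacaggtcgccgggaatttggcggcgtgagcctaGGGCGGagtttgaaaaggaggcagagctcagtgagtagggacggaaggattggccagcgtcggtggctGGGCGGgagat
The Kmt2d window held 4 GC boxes and 26 CpG, the Tet2 window 1 GC box and 51 CpG, the Prmt2 window 1 match each to the GC box, the ETS core and the TATA letters, and the Hdac6 window 4 GC boxes. Over all the enzyme windows, 61.9% held a GC box, against 32.7% of 32851 promoter windows of the same length, and the median number of CpG was 17 against 6. A GC box was in 70.8% of the 24 windows of genes higher in db/db than db/+ and in 73.3% of the 15 windows of genes that were lower. These windows belong to 18 and 8 genes, as some genes have several starts. For the enzyme genes not called, it was in 53.3% of 45 windows of 34 genes. The half-site AGGTCA was in 13.1% of the enzyme windows and 14.0% of all windows. A match of these letters is a description and not a binding site.

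The first comparison asks how diabetic β-cells heterozygous for Aldh1a3 differ from lean ones of the same Aldh1a3 genotype. In db/db, 25 of the 72 genes (34.7%) were higher than in db/+ and 10 (13.9%) were lower, where 19.9% of the 13406 genes tested were called higher and 18.0% lower (37.8% in either direction, against 48.6% of the enzyme genes). By class, 10 of 17 lysine methyltransferases, 5 of 16 demethylases, 3 of 8 acetyltransferases and 4 of 6 DNA methylation enzymes rose, as did 2 of 11 classical deacetylases, 1 of 7 sirtuins and 0 of 7 arginine methyltransferases. Falls were 4 deacetylases, 3 lysine methyltransferases, 2 arginine methyltransferases and 1 demethylase. The median log2 fold change of the 72 genes was 0.29 (range -1.57 to 2.41), and that of all genes tested was 0.01. Of the 25 rises, 20 were in genes over 6 kb by the longest transcript and 12 by the median transcript. The call was lost when a library was left out for 6 genes, at an adjusted p of 0.0509 to 0.152. These were Kat14 (without any 1 of the 5 libraries), Hdac11 (all but the first db/db library), Kdm1a and Prmt7 (all but the third db/+ library), Kmt5a (the first or second db/+ or second db/db library) and Dnmt3a (the first db/+ or first db/db library).

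**Figure D1:**
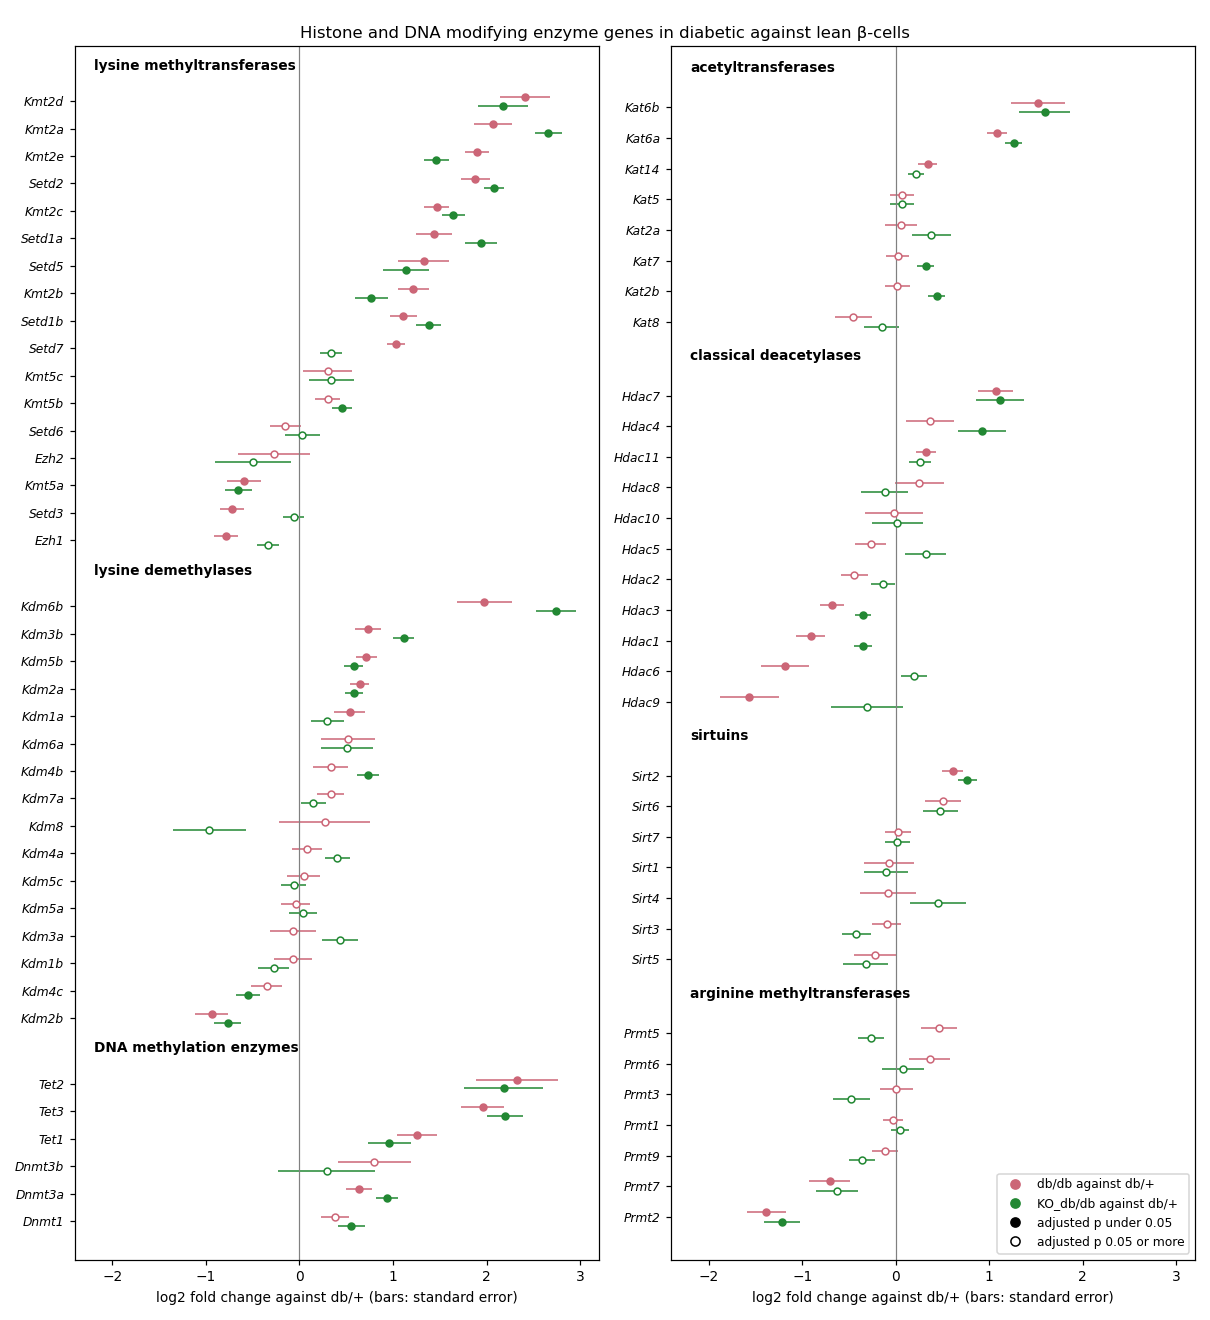
Log2 fold change of each of the 72 enzyme genes against db/+ (x axis, points with standard error bars), by class, for db/db (red) and KO_db/db (green); filled points have an adjusted p under 0.05. The lysine methyltransferases reach from -0.78 to 2.41 in db/db and Sirt2, at 0.61, is the one filled sirtuin in db/db.

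The 7 genes of the Kmt2 and Setd1 families, the mixed-lineage leukaemia genes Kmt2a to Kmt2e and the Set1 genes Setd1a and Setd1b, rose in db/db. Their products methylate histone H3 lysine 4 (H3K4), as does Setd7, which is described separately. Kmt2e is placed with this family by its sequence, though its own catalytic activity is in doubt. Their median log2 fold change was 1.47, with a range of 1.11 to 2.41. Together they took 112, 112 and 148 CPM in the db/+ libraries, 379 and 425 CPM in db/db, and 426 and 401 CPM in KO_db/db. The diabetic libraries did not overlap with the lean ones, and those of db/db and KO_db/db overlapped each other.

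Kmt2d, which with Kmt2c places H3K4 monomethylation at enhancers, measured 11.3, 11.8 and 21.0 CPM in db/+, 80.3 and 76.9 CPM in db/db, and 71.3 and 61.2 CPM in KO_db/db. No diabetic library overlapped the lean ones, and the third db/+ library was the highest of its group. It rose in db/db by 2.41 (SE 0.27, adjusted p = 0.00137), the largest rise of the 72 genes. Kmt2a, which encodes the founding member of the family, went from 11.4, 11.2 and 14.8 CPM to 43.1 and 62.1 CPM in db/db and 83.4 and 73.6 CPM in KO_db/db. Here the KO_db/db libraries were the highest, and the rise against db/+ was 2.66 (SE 0.15, adjusted p = 0.000605), beside 2.07 (SE 0.20, adjusted p = 0.00101) for db/db.

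Kmt2e measured 21.0, 21.9 and 26.1 CPM in db/+, 84.1 and 88.6 CPM in db/db, and 57.2 and 69.1 CPM in KO_db/db. Kmt2c rose by 1.47 (SE 0.13, adjusted p = 0.000844) and Setd1a by 1.44 (SE 0.20, adjusted p = 0.00255) in db/db. Setd1a shares 51.8% of its exon bases with a readthrough entry, Gm49388, which held at most 9 counts in any library. Kmt2b and Setd1b, the smallest rises of the group, had log2 fold changes of 1.22 (SE 0.17, adjusted p = 0.00254) and 1.11 (SE 0.14, adjusted p = 0.002). For Kmt2b the KO_db/db libraries, at 24.9 and 30.6 CPM, lay between db/+ (14.3 to 19.8 CPM) and db/db (37.1 and 39.6 CPM).

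**Figure D2:**
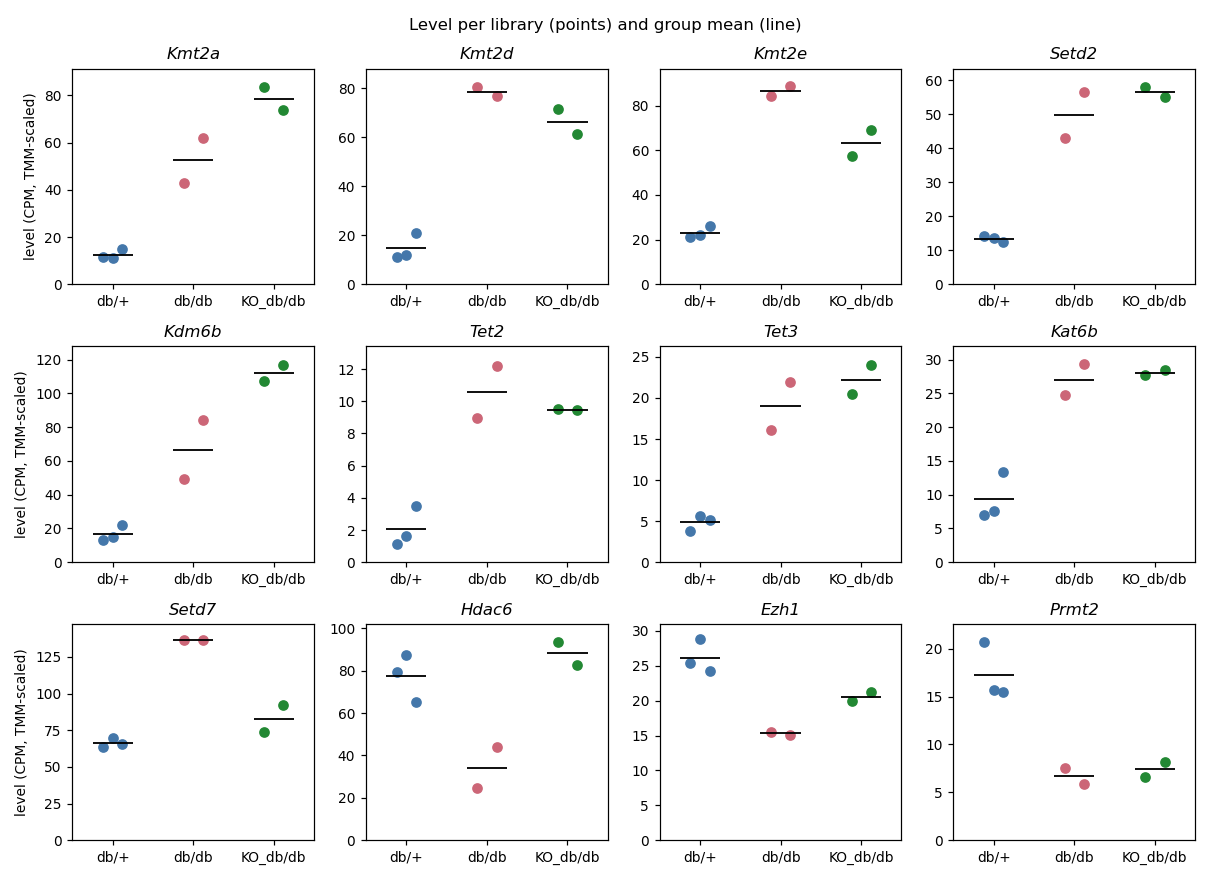
Level of 12 enzyme genes in each library (y axis, TMM-scaled CPM from 0) for db/+ (blue), db/db (red) and KO_db/db (green), with the group mean as a line. Kmt2d, Kmt2a, Setd2, Kdm6b, Tet2, Tet3 and Kat6b were higher in each db/db and KO_db/db library than in each db/+ library. The KO_db/db values of Setd7 (73.6 and 92.1 CPM), Hdac6 (93.5 and 82.8 CPM) and Ezh1 (19.9 and 21.3 CPM) did not overlap with db/db. None of these differences from db/db was called (edgeR, adjusted p = 0.118, 0.114 and 0.209). Of all genes tested, 28.4% were higher and 29.1% lower in KO_db/db than in db/db without overlap.

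Outside these families, Setd2, the enzyme of H3K36 trimethylation in gene bodies, rose from 14.3, 13.6 and 12.4 CPM to 43.1 and 56.7 CPM in db/db (log2 fold change 1.88, SE 0.15, adjusted p = 0.000661) and stood at 58.2 and 55.2 CPM in KO_db/db. Setd5 rose by 1.33 (SE 0.27, adjusted p = 0.0105), but its diabetic libraries were far apart, at 92.6 and 171 CPM in db/db and 84.0 and 145 CPM in KO_db/db. Setd7, a monomethyltransferase of H3K4 and of several other proteins that is abundant in islets, had 63.4, 69.4 and 65.4 CPM in db/+ and 136 and 137 CPM in db/db. Its rise in db/db was 1.03 (SE 0.10, adjusted p = 0.00087). The KO_db/db libraries, at 73.6 and 92.1 CPM, were above every db/+ library and below both db/db libraries, and the difference from db/+ was not called (0.33, SE 0.12, adjusted p = 0.0602).

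The methyltransferases that fell in db/db were Ezh1, Setd3 and Kmt5a. Ezh1, a catalytic subunit of Polycomb repressive complex 2 (PRC2), which writes H3K27 methylation, measured 25.3, 28.8 and 24.3 CPM in db/+ and 15.5 and 15.1 CPM in db/db (log2 fold change -0.78, SE 0.13, adjusted p = 0.00487). In KO_db/db it was at 19.9 and 21.3 CPM, between the other groups. Its paralogue Ezh2, which is used more by dividing cells, was low in every library, between 1.19 and 3.08 CPM, with overlapping groups (-0.27, SE 0.39, adjusted p = 0.614). Per kb of the longest transcript, the mean level in db/+ was 6.21 CPM for Ezh1 and 0.864 CPM for Ezh2.

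Setd3, an actin histidine methyltransferase by later work despite its name, went from 165, 192 and 162 CPM to 97.8 and 114 CPM in db/db (-0.72, SE 0.13, adjusted p = 0.00684), while KO_db/db stood at 166 and 163 CPM, inside the db/+ range. Kmt5a, the H4K20 monomethyltransferase of the cell cycle, dropped by 0.59 (log2) in db/db (SE 0.18, adjusted p = 0.0412) and by 0.65 in the mutant (SE 0.14, adjusted p = 0.0133). The summed level of 16 proliferation markers was also lower, at 80.1 to 114 CPM in db/+ and 48.4 to 68.7 CPM in the diabetic libraries. Of the 16, 3 were called lower and 1 higher in db/db, where 18.0% and 19.9% of all genes tested were. In KO_db/db, 6 were lower and 1 higher, beside 17.9% and 20.5%. The part of proliferation in the levels of Kmt5a, Ezh2 and Dnmt1 was not tested.

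Among the demethylases, Kdm6b stood out. It encodes an H3K27 demethylase that is induced by many stimuli. The level was 13.3, 14.8 and 22.3 CPM in db/+, 49.2 and 84.0 CPM in db/db, and 108 and 117 CPM in KO_db/db, so the 3 groups did not overlap. The log2 fold change was 1.98 (SE 0.29, adjusted p = 0.00321) in db/db and 2.74 (SE 0.21, adjusted p = 0.000693) in KO_db/db, the largest rise of any of the 72 genes in that comparison. Kdm6b shares 4.1% of its exon bases with an antisense gene, and the strand of the counts is not stated.

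Kdm6a, the X-linked H3K27 demethylase, measured 27.9 and 32.2 CPM in the first db/+ libraries and 15.3 CPM in the third, the library with Y-linked transcripts. The diabetic libraries lay between 34.2 and 38.4 CPM, above all db/+ libraries. Its log2 value in db/db was 0.52 (SE 0.29, adjusted p = 0.194) with that library and 0.26 (adjusted p = 0.211) without it. The X-linked Kdm5c likewise had its lowest db/+ level there (46.9 CPM, against 61.3 and 56.1 CPM), with overlapping groups and a db/db value of 0.04 (adjusted p = 0.872) with and -0.05 (adjusted p = 0.841) without it.

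Of the H3K4 demethylases, which remove the mark that the Kmt2 and Setd1 genes write, Kdm5b rose by 0.71 (SE 0.11, adjusted p = 0.00396) and Kdm1a by 0.54 (SE 0.17, adjusted p = 0.042) in db/db. Kdm5b was at 21.8, 24.1 and 22.8 CPM in db/+, 36.2 and 39.4 CPM in db/db, and 32.9 and 35.2 CPM in KO_db/db. Kdm5a ranged from 31.7 to 42.0 CPM over the 7 libraries with no separation of the groups, and Kdm1b from 10.5 to 15.8 CPM. Kdm1a had 48.8, 54.3 and 69.9 CPM in db/+ and 89.4 and 79.4 CPM in db/db.

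The H3K36 demethylases parted. Kdm2a rose from 42.6, 41.1 and 44.3 CPM to 68.1 and 66.1 CPM in db/db (0.64, SE 0.10, adjusted p = 0.00364). Kdm2b, which recruits a Polycomb complex to unmethylated CpG islands, fell from 60.3, 57.5 and 46.6 CPM to 33.1 and 24.7 CPM (-0.94, SE 0.17, adjusted p = 0.00739). Both kept their direction in KO_db/db, with log2 fold changes of 0.58 (SE 0.09, adjusted p = 0.00474) for Kdm2a and -0.77 (SE 0.15, adjusted p = 0.00824) for Kdm2b.

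Kdm3b, an H3K9 demethylase, rose by 0.73 in db/db (SE 0.14, adjusted p = 0.00749) and by 1.11 in KO_db/db (SE 0.11, adjusted p = 0.00115). It shares 24.6% of its exon bases with an antisense lincRNA. Relative to db/+, Kdm4b rose by 0.73 in KO_db/db (SE 0.12, adjusted p = 0.00532) and Kdm4c fell by 0.55 on the log2 scale (SE 0.12, adjusted p = 0.0146). Kdm4a, between 28.6 and 44.2 CPM, just missed the threshold there (0.40, SE 0.13, adjusted p = 0.051). In db/db the values were 0.34 for Kdm4b (SE 0.19, adjusted p = 0.205) and -0.35 for Kdm4c (SE 0.16, adjusted p = 0.129), and neither was called in the direct comparison of the diabetic groups.

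Kat6a and Kat6b, paralogous acetyltransferases of histone H3, were the acetyltransferases with large rises. Kat6b had 6.999, 7.62 and 13.4 CPM in db/+, 24.8 and 29.3 CPM in db/db, and 27.7 and 28.4 CPM in KO_db/db. The rise was 1.52 in db/db (SE 0.29, adjusted p = 0.00757) and 1.59 in KO_db/db (SE 0.27, adjusted p = 0.00563). Kat6a rose from 22.2, 24.6 and 24.5 CPM to 52.3 and 48.9 CPM in db/db (1.08, SE 0.11, adjusted p = 0.00104) and was at 56.6 CPM in both KO_db/db libraries. The groups of neither gene overlapped with db/+.

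Kat14, an acetyltransferase of the ATAC complex, rose by 0.34 in db/db (SE 0.10, adjusted p = 0.0371). It shares 14.7% of its exon bases with Pet117 on the same strand, which had at most 1.61 CPM. Kat2b, the coactivator PCAF, showed overlapping levels in db/+ (45.1, 48.0 and 50.4 CPM) and db/db (43.5 and 54.2 CPM), and 64.1 and 64.9 CPM in KO_db/db (against db/+ 0.44, SE 0.09, adjusted p = 0.0104). Kat7 had a smaller difference of the same kind (0.32, SE 0.09, adjusted p = 0.0344). Kat2a, Kat5 and Kat8 were not called against db/+ in either diabetic group.

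**Figure D3:**
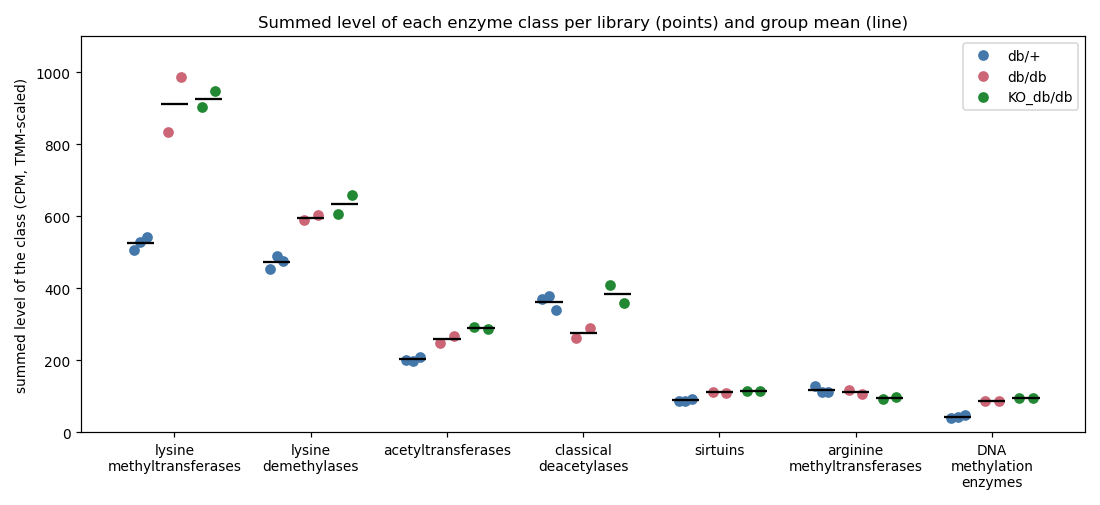
Summed level of each enzyme class in each library (y axis, TMM-scaled CPM from 0) for db/+ (blue), db/db (red) and KO_db/db (green), with the group mean as a line; sums weigh abundant and long genes most. Lysine methyltransferases took 506 to 543 CPM in db/+ and 834 to 987 CPM in the diabetic libraries, while classical deacetylases took 339 to 378 CPM in db/+, 261 and 289 CPM in db/db and 409 and 358 CPM in KO_db/db.

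Of the 11 classical deacetylases, 4 fell and 2 rose in db/db. The class I enzymes Hdac1, Hdac2 and Hdac3 are the catalytic cores of corepressor complexes such as Sin3 and NuRD. Hdac1 measured 52.7, 51.9 and 46.0 CPM in db/+, 23.2 and 30.6 CPM in db/db, and 39.4 and 39.0 CPM in KO_db/db, with no overlap between the groups. It dropped by 0.91 (log2) in db/db (SE 0.15, adjusted p = 0.00509) and by 0.35 in KO_db/db (SE 0.10, adjusted p = 0.0319). Hdac1-ps, a near-identical entry with which reads can be shared, was at 6.11 and 5.27 CPM in KO_db/db, 0 in db/db and up to 0.182 CPM in db/+. With the counts of both summed, the log2 fold changes were -0.91 (adjusted p = 0.00508) and -0.16 (adjusted p = 0.251), so the call in KO_db/db was lost.

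Hdac3 was at 38.6, 39.7 and 38.6 CPM in db/+, 22.0 and 26.8 CPM in db/db, and 30.1 and 30.8 CPM in KO_db/db, the same order as Hdac1. It dropped by 0.69 (log2) in db/db (SE 0.13, adjusted p = 0.00724). Hdac2 did not pass the threshold (-0.44, SE 0.15, adjusted p = 0.0543), with 63.7, 66.0 and 51.1 CPM in db/+ and 41.2 and 48.2 CPM in db/db. The 4 class I genes together took 158, 162 and 139 CPM in db/+, 91.6 and 109 CPM in db/db, and 129 and 126 CPM in KO_db/db.

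Hdac6, the mainly cytoplasmic tubulin deacetylase encoded on the X chromosome, stood apart in db/db. Its level was 79.4, 87.3 and 65.4 CPM in db/+, 24.6 and 43.8 CPM in db/db, and 93.5 and 82.8 CPM in KO_db/db. The db/db libraries lay under every other library, and the KO_db/db libraries overlapped those of db/+. The values against db/+ were -1.19 in db/db (SE 0.26, adjusted p = 0.0126), -1.29 without the third db/+ library (adjusted p = 0.0194), and 0.19 in KO_db/db (SE 0.14, adjusted p = 0.296), or 0.09 without that library (adjusted p = 0.553). Hdac8, the other X-linked deacetylase, was low (2.83 to 5.25 CPM) and not called with or without it.

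The class IIa deacetylases, which shuttle between nucleus and cytoplasm, moved in different directions. Hdac7 rose in db/db by 1.07 (SE 0.19, adjusted p = 0.00579), from 4.67, 4.96 and 6.20 CPM to 11.3 and 11.1 CPM, and stood at 14.2 and 8.62 CPM in KO_db/db. Hdac9 fell from 8.92, 8.24 and 11.6 CPM to 4.28 and 2.27 CPM in db/db (-1.57, SE 0.32, adjusted p = 0.00997), the largest fall of the 72 genes, and its KO_db/db libraries were far apart at 11.2 and 4.37 CPM. Hdac4 was called in KO_db/db against db/+ (0.92, SE 0.26, adjusted p = 0.0295), with 19.3 and 14.2 CPM against 6.71 to 11.7 CPM, and it shares 22.4% of its exon bases with an antisense lincRNA. Hdac5 was not called, and its first KO_db/db library, the one with the most acinar RNA, had 80.9 CPM against 35.4 to 54.4 CPM elsewhere. Hdac11, of class IV, rose slightly in db/db (0.33, SE 0.11, adjusted p = 0.0485).

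Of the sirtuins, 1 of 7 was called. Sirt2, which deacetylates tubulin and histone H4, rose from 37.9, 38.3 and 43.8 CPM to 62.3 and 60.7 CPM in db/db (0.61, SE 0.11, adjusted p = 0.00696) and to 69.4 and 65.9 CPM in KO_db/db (0.76, SE 0.10, adjusted p = 0.00247). Sirt6, a chromatin-bound H3K9 deacetylase, showed no overlap with db/+ but missed the threshold in db/db (0.51, SE 0.19, adjusted p = 0.0813). Sirt1 ranged from 8.62 to 14.7 CPM with overlapping groups. Sirt3, the mitochondrial deacetylase, was at 8.24 to 8.83 CPM in db/+, 8.57 and 7.60 CPM in db/db, and 6.16 and 6.60 CPM in KO_db/db (against db/+ -0.42, SE 0.15, adjusted p = 0.0694).

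Arginine methyltransferases gave 0 rises. Prmt2, a weak enzyme and nuclear receptor coactivator, fell from 20.7, 15.7 and 15.4 CPM to 7.51 and 5.85 CPM in db/db (-1.38, SE 0.21, adjusted p = 0.0034) and to 6.57 and 8.20 CPM in KO_db/db (-1.21, SE 0.19, adjusted p = 0.00452). Prmt7 had a log2 fold change of -0.70 in db/db (SE 0.22, adjusted p = 0.0427). Prmt1, the main enzyme of asymmetric arginine methylation, ranged from 35.1 to 39.3 CPM over all 7 libraries (-0.03 in db/db, SE 0.11, adjusted p = 0.84). Prmt5, the main enzyme of symmetric arginine methylation, had 36.1 and 25.2 CPM in db/db and 17.9 to 24.6 CPM in every other library, and its value in db/db was not called (0.47, SE 0.19, adjusted p = 0.097).

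All 3 Tet genes rose. Tet2 had 1.15, 1.64 and 3.46 CPM in db/+, 8.98 and 12.2 CPM in db/db, and 9.52 and 9.44 CPM in KO_db/db, and rose in db/db by 2.32 (SE 0.44, adjusted p = 0.00762). Tet3 had 3.77, 5.62 and 5.19 CPM, then 16.1 and 22.0 CPM, then 20.4 and 24.0 CPM (in db/db 1.96, SE 0.23, adjusted p = 0.00152). Tet1 rose by 1.25 in db/db (SE 0.21, adjusted p = 0.00512). The mutant values against db/+ were 2.18 (SE 0.42, adjusted p = 0.0087) for Tet2, 2.20 (SE 0.19, adjusted p = 0.000844) for Tet3 and 0.96 (SE 0.23, adjusted p = 0.0178) for Tet1. Summed, they took 7.41 to 11.5 CPM in db/+ and 31.1 to 40.7 CPM in the diabetic libraries. Per kb of the longest transcript the order of the mean levels was Tet3, Tet2, Tet1 in each group, at 0.446, 0.227 and 0.182 CPM in db/+ and 1.74, 1.15 and 0.438 CPM in db/db.

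Of the DNA methyltransferases, Dnmt3a, a de novo enzyme, was at 20.4, 23.0 and 24.4 CPM in db/+, 39.0 and 31.9 CPM in db/db, and 45.5 and 40.4 CPM in KO_db/db, a rise of 0.64 (SE 0.14, adjusted p = 0.013) in db/db and of 0.93 (SE 0.12, adjusted p = 0.00216) in KO_db/db. Dnmt1, the maintenance enzyme, was at 9.41, 9.48 and 10.98 CPM in db/+, 13.5 and 12.7 CPM in db/db and 15.5 and 13.7 CPM in KO_db/db. The diabetic groups did not overlap with db/+, and the call was made for KO_db/db (0.56, SE 0.14, adjusted p = 0.0231) and missed for db/db (0.38, SE 0.15, adjusted p = 0.0873). The difference between the diabetic groups was 0.15 (SE 0.17, adjusted p = 0.623). Dnmt3b was at or under 1.82 CPM in every library and was not called.

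The next comparison, of KO_db/db with db/+, asks how far the mutant diabetic cells stood from lean ones. In this comparison 27 of the 72 genes were higher (37.5%) and 6 were lower (8.3%), where 20.5% of 13228 genes tested were called higher and 17.9% lower (38.4% in either direction). By class, 10 of 17 lysine methyltransferases, 5 of 16 demethylases, 4 of 8 acetyltransferases, 2 of 11 deacetylases, 1 of 7 sirtuins, 0 of 7 arginine methyltransferases and 5 of 6 DNA methylation enzymes rose. The genes that fell were Kmt5a, Kdm2b, Kdm4c, Hdac1, Hdac3 and Prmt2. The 7 Kmt2 and Setd1 genes were again higher, with a median of 1.64 and a range of 0.77 to 2.66, whereas the H3K4 enzyme gene Setd7 was not called (0.33, adjusted p = 0.0602). The median over the 72 genes was 0.31, against -0.003 over all genes tested. The call of 12 genes was lost when a library was left out, at an adjusted p of 0.0501 to 0.161. They were Kat7 (without any 1 of the 5 libraries), Hdac1, Hdac3 and Kmt5b (all but the third db/+ library), and Dnmt1, Hdac4, Hdac7 and Kdm4c (the first KO_db/db or the first or second db/+ library). Tet1 lost it without the second KO_db/db or the first or second db/+ library, Kmt2b without the second KO_db/db or second db/+ library, and Kmt5a and Setd5 without the second KO_db/db library. Without the first KO_db/db library the value of Hdac7 went from 1.11 to 0.71 (adjusted p = 0.0925), and without the second that of Setd5 went from 1.14 to 0.68 (adjusted p = 0.0559).

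The comparison of KO_db/db with db/db asks what loss of both copies of Aldh1a3, rather than a single copy, did in diabetic cells. No enzyme gene passed the threshold, where 43 of 13486 genes tested (0.319%) did so, 0.126% higher and 0.193% lower. At an unadjusted p under 0.05 there were 11 of 72 genes (15.3%), against 20.9% of all genes tested. The median log2 fold change was 0.05, against -0.02 for all genes tested, and the range was -1.26 to 1.36. Levels did not overlap between the groups for 27 genes that were higher in KO_db/db (37.5%) and 15 that were lower (20.8%), beside 28.4% and 29.1% of all genes tested. With other methods, 4 genes were called by DESeq2 (Hdac6, Prmt5, Setd3 and Setd7), 5 by edgeR without a filter on low counts (these and Kdm6b) and 3 by edgeR with all 7 libraries in one fit (Hdac6, Setd3 and Setd7).

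The 5 genes with the smallest p, none of them called, were Hdac6, Setd7, Setd3, Prmt5 and Kmt2e. Hdac6 had a value of 1.36 (SE 0.29, adjusted p = 0.114), at 93.5 and 82.8 CPM in KO_db/db against 24.6 and 43.8 CPM in db/db. Without the second db/db library the value was 1.83 and passed the threshold (adjusted p = 0.0373), and without the first it was 1.01 (adjusted p = 0.159). Setd7 had -0.72 (SE 0.16, adjusted p = 0.118), Setd3 0.64 (SE 0.15, adjusted p = 0.123), Prmt5 -0.75 (SE 0.21, adjusted p = 0.16) and Kmt2e -0.45 (SE 0.15, adjusted p = 0.185). The levels of all 5 were apart in the 4 libraries.

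The other genes at an unadjusted p under 0.05 were Hdac1 (0.54), Kmt2b (-0.47), Ezh1 (0.42), Kdm6b (0.75), Kmt2a (0.57) and Kat2b (0.40), with SE from 0.15 to 0.27 and adjusted p from 0.19 to 0.236. The direction of each of the 11 was the same whichever of the 4 libraries was left out. As the levels of all 11 did not overlap between the groups, this followed from the choice of genes and is not a check of them. The db/db libraries are shared with the comparison against db/+, so the values of the 2 comparisons are not independent. The first KO_db/db library held far more acinar RNA than the second. These values are therefore also given as a range over the libraries left out, in the plot of KO_db/db against db/db. Both KO_db/db libraries held more acinar RNA (121456 and 10164 CPM) than any db/db or db/+ library (at most 357 CPM). Whichever library is left out, acinar content and the Aldh1a3 genotype cannot be told apart.

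**Figure D4:**
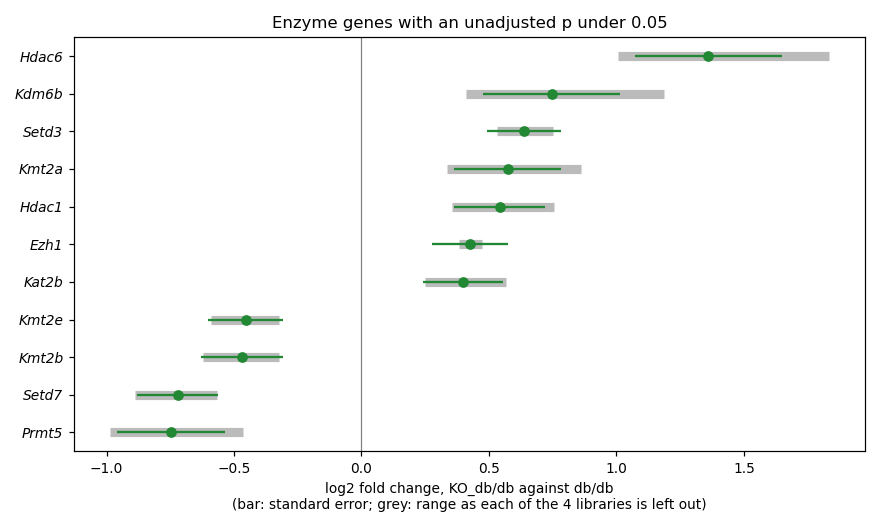
Difference of KO_db/db from db/db on the log2 scale (x axis) of the 11 enzyme genes with an unadjusted p under 0.05, none of which passed the adjusted threshold; points with bars are the value and its standard error, and the grey band is the range when each of the 4 libraries is left out. The band of Hdac6 runs from 1.01 to 1.83 and that of Setd7 from -0.89 to -0.57. No band reaches 0, which followed from the choice of genes, as the groups did not overlap for any of the 11.

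Transcript length was related to the differences from db/+. By the median length of a gene's annotated protein-coding transcripts, 12 of 13 enzyme genes over 6 kb rose in db/db (median log2 fold change 1.33), and 13 of 59 shorter ones did. Over all genes tested, 41.9% of the 719 genes over 6 kb rose and 10.3% fell, with a median of 0.47, against 13.7% and 20.6% of the 5985 genes up to 2 kb, with a median of -0.11. The median length is short for genes with many annotated fragments (567 bases for Tet1 and 916 for Setd1a), so the longest protein-coding transcript is also given.

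By the longest transcript, 26 of the 72 genes were over 6 kb, of which 20 rose in db/db (76.9%) and 1, Hdac9, fell, with a median of 1.16. Of all 1814 genes over 6 kb, 40.5% rose and 10.8% fell, with a median of 0.42. Of the 46 enzyme genes up to 6 kb, 5 rose (Hdac7, Hdac11, Kat14, Kdm1a and Sirt2; 10.9%) and 9 fell (19.6%), beside 16.7% and 19.0% of all 11349 genes of that length. The long enzyme genes that were not called higher in db/db, beside Hdac9, were Hdac4, Kdm5a, Kdm5c, Kdm7a and Kmt5b. Of these, Kdm7a (0.33, adjusted p = 0.105) and Kmt5b (0.30, adjusted p = 0.113) were above db/+ without overlap. For KO_db/db, 21 of the 26 long genes rose (80.8%), against 46.3% of all long genes tested.

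Over the 72 genes, Spearman's rho between the longest transcript and the log2 fold change was 0.61 (Pearson's r with log2 length 0.62) in db/db and 0.65 (0.67) in KO_db/db, against db/+. Over all genes tested rho was 0.21 (n = 13163) and 0.27 (n = 12989). For the difference of the mutant from db/db, rho was 0.07 for the enzyme genes and 0.04 for all genes. These are descriptions across genes, which are not independent replicates and share the same 7 libraries.

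**Figure D5:**
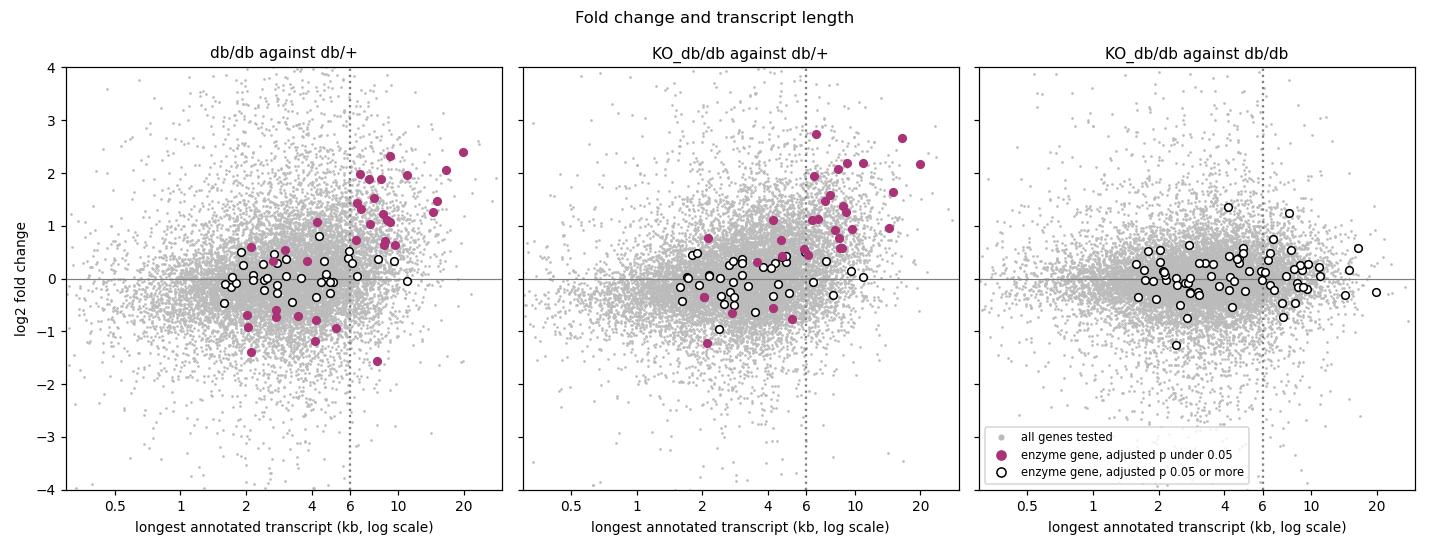
Log2 fold change (y axis) by the length of the longest protein-coding transcript (x axis, log scale, in kb) for all genes tested (grey) and the 72 enzyme genes (purple if the adjusted p is under 0.05, open otherwise), with a dotted line at 6 kb; 174 to 276 genes beyond a log2 value of 4 are not drawn in each panel. Against db/+ the enzyme genes over 6 kb lie mostly above 0 with most of the called rises, and in KO_db/db against db/db they scatter around 0.

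A fit in which the length trend of all genes was taken out of each library gives the values beside it. With an offset from the median transcript length, 24 enzyme genes were higher and 9 lower in db/db, with a median of 0.20, where 18.6% and 17.7% of all genes tested were called. With one from the longest transcript, an alternative added after the data had been seen, 22 were higher and 11 lower, with a median of 0.12, where 18.5% and 17.8% of all genes tested were called. In the latter fit 31 of the 35 calls were kept, 4 were lost (Dnmt3a, Kdm2a, Kdm5b and Tet1) and Kdm5a and Sirt6 were gained. The 7 Kmt2 and Setd1 genes were still called in db/db, with log2 fold changes of 1.42 for Kmt2d (adjusted p = 0.00323), 1.17 for Kmt2a (adjusted p = 0.00238), 1.55 for Kmt2e (adjusted p = 0.000522) and 0.64 for both Kmt2c and Setd1b. Setd2 stood at 1.43 (adjusted p = 0.0013), Kdm6b at 1.68 (adjusted p = 0.0041) and Tet2 at 1.84 (adjusted p = 0.0125).

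For KO_db/db against db/+ the median-length offset left 23 genes higher and 8 lower (18.3% and 18.1% of all genes tested), and the longest-transcript offset left 20 genes higher and 7 lower, where 18.1% and 17.9% of all genes tested were called. It kept 23 of 33 calls and lost Dnmt1, Dnmt3a, Hdac1, Hdac3, Hdac4, Kdm2a, Kdm5b, Kmt2b, Kmt5b and Tet1. It gained 4 calls. Kdm5a, near 0 without the offset (0.04), was at -0.68 with it (adjusted p = 0.0105), and Kdm7a went from 0.15 to -0.48 (adjusted p = 0.0186). Ezh1 was called lower at -0.43 (adjusted p = 0.0294), and Sirt6 higher at 0.60 (adjusted p = 0.0439). KO_db/db against db/db had no call with either offset, where 0.136% of all genes tested were called higher and 0.211% lower with the longest transcript, and 0.159% and 0.242% with the median. The cause of the length trend was not tested.

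Partner genes of the same complexes were counted from lists chosen by role. Each count stands beside the shares of all genes tested, 19.9% higher and 18.0% lower in db/db, and 20.5% and 17.9% in KO_db/db. In db/db against db/+, 9 of 20 partners of the deacetylase complexes rose and 0 fell. Of the 9 rises, 5 were in genes over 6 kb, a length at which 40.5% of all genes tested rose. Chd4, the helicase of NuRD, went from 98.1, 96.8 and 107 CPM to 187 and 199 CPM (0.92, SE 0.11, adjusted p = 0.00144). For KO_db/db, 12 of the 20 rose, 5 of these in genes over 6 kb, and 0 fell. Chd4 is over 6 kb long.

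Of 13 partners of the H3K4 complex COMPASS, 2 rose in db/db (Hcfc1 and Ncoa6) and 2 fell (Dpy30 and Wdr82). Both rises were in genes over 6 kb, a length at which 40.5% of all genes tested rose, and Dpy30 is 789 bases long. Ncoa6, which belongs to the Kmt2c and Kmt2d complexes, rose by 1.62 (SE 0.16, adjusted p = 0.00102), whereas the core subunit Dpy30 dropped by 0.50 (SE 0.13, adjusted p = 0.0239). In KO_db/db, 4 rose and 5 fell, among them the core subunit Rbbp5 (-0.90, SE 0.21, adjusted p = 0.0155). Of 9 PRC2 partners, 3 rose in db/db and 0 fell. Jarid2, which guides PRC2 to its targets, rose from 4.22, 4.81 and 4.26 CPM to 14.7 and 17.9 CPM (1.87, SE 0.17, adjusted p = 0.000839), while the core subunits Eed and Suz12 were not called.

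Of 29 histone enzymes whose names fall outside the symbol rule, 9 rose and 2 fell in db/db, and 11 rose and 3 fell in KO_db/db, beside the shares of all genes given above (19.9% and 18.0%, and 20.5% and 17.9%). Of these rises, 7 of 9 in db/db and 10 of 11 in KO_db/db were in genes over 6 kb, as were Crebbp, Ep300 and Nsd1. Crebbp, an acetyltransferase and general coactivator, rose from 6.34, 5.98 and 8.48 CPM to 34.6 and 40.3 CPM in db/db (2.42, SE 0.19, adjusted p = 0.00059), and its paralogue Ep300 rose by 1.30 (SE 0.16, adjusted p = 0.00177). Nsd1, an H3K36 methyltransferase, rose by 1.34 (SE 0.12, adjusted p = 0.000795). Acetyltransferase complex partners gave 6 rises and 3 falls of 21 in db/db, and 7 and 2 in KO_db/db. DNA methylation partners gave 2 rises and 2 falls of 11 in db/db. The isocitrate dehydrogenases Idh1 and Idh2 make the 2-oxoglutarate that Tet and Kdm dioxygenases consume. Idh1 rose in db/db from 22.3, 27.8 and 25.2 CPM to 43.4 and 47.0 CPM (0.84, SE 0.13, adjusted p = 0.00358), and Idh2 fell from 98.1, 98.4 and 92.8 CPM to 39.2 and 45.7 CPM (-1.19, SE 0.12, adjusted p = 0.00096). None of the partner genes was called in KO_db/db against db/db.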

How the data were processed

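RNA-seq of sorted β-cells from 2 KO_db/db, 2 db/db and 3 db/+ mice was analysed, with groups taken from the labels. The authors deposited estimated counts per gene from kallisto 0.44.0 on GRCm38 (submitters' processing notes), rounded to whole numbers and not normalized. The annotation release and strand setting are not given in the sources used here. Of the table's columns, 0 were left unused. kallisto divides reads among transcripts, so near-identical genes are uncertain.

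Fits used the libraries of the 2 groups compared, in R 4.3.3 with edgeR 4.0.16 (filterByExpr with a minimum count of 10, TMM, glmQLFit and glmQLFTest, Benjamini-Hochberg, threshold 0.05), which was tested on simulated data. Standard errors were |log2 fold change| over the square root of F. Lengths came from GENCODE on GRCm38 (34273 of 35013 symbols, all 72 members). Length offsets were lowess trends (span 0.5) of log2 CPM, prior count 2. Alternatives were RLE scaling, DESeq2 1.42.0 (the study's tool), no filter, all libraries in one fit, a replicate block, scaling without acinar and Reg genes, length offsets, an adjusted p under 0.01, each library left out, and other member floors. The members, lists and tests were chosen with earlier results of these data known. Named genes were a role-based list, the 3 largest rises and falls per class and comparison, and the 5 smallest p in KO_db/db against db/db. Kat2a, Kat5, Kat7, Kat8, Kdm2a, Kdm7a, Kdm8, Kmt5b, Hdac8, Setd5 and the partner genes with values were named after their values were seen. Replicates are separate mice and differed by more than sampling noise. No single value of 2 against 2 mice can reach p under 0.05 in a permutation test.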

Additional observations from a re-analysis of the deposited data

How the results depend on the processing

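Of 72 genes, db/db against db/+ gave 35 calls and 27 to 36 under every alternative run. The range was 29 to 34 as each library was left out. The median log2 fold change (0.29) was 0.17 with the replicate block, 0.20 and 0.12 with the length offsets from median and longest transcripts, and 0.21 to 0.31 with a library left out. In KO_db/db against db/+ the 33 calls became 24 to 33 with a library left out, 27 to 36 under other fits, and 20 at an adjusted p under 0.01. Its median (0.31) was 0.24 with the replicate block, 0.15 and 0.16 with the length offsets, and 0.23 to 0.30 with a library left out. In KO_db/db against db/db the 0 calls became 4 with DESeq2, 5 without a filter and 3 with all libraries in one fit, and 0 to 1 with a library left out. The cause of these changes was not tested. Mouse numbers did not pair the libraries (correlations of deviations from group means -0.10 to 0.08), and the replicate block gave 34, 31 and 0 calls in the order db/db against db/+, KO_db/db against db/+ and KO_db/db against db/db. Over the 72 genes and the alternatives run, 2 changed sign with a call, both in KO_db/db against db/+ and both uncalled in the reported test. Kdm5a was at -0.68 with the longest-transcript offset, and Kdm7a at -0.55 and -0.48 with the median and longest offsets. With a floor of 2 CPM, 70 genes were members. Of the named genes' alternative values, 33 in db/db and 43 in KO_db/db against db/+ lost a call and 12 and 18 gained one. With 2 mice in each diabetic group, and 1 where a library was left out, small differences cannot be resolved.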

Other observations

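Some enzyme genes differed widely between mice of one group, and are given as values. Hdac5 was at 80.9 CPM in the first KO_db/db library and 46.2 CPM in the second, and Hdac9 at 11.2 and 4.37 CPM. Setd5 differed between the mice of both diabetic groups, with 92.6 and 171 CPM in db/db, and 84.0 and 145 CPM in KO_db/db. Kdm8 was at 3.02 CPM in the first db/db library and between 0.821 and 1.77 CPM in every other library. The proliferation gene Mki67 was higher in each diabetic library (2.00 and 9.15 CPM in db/db, 5.09 and 4.68 CPM in KO_db/db) than in db/+ (0.762 to 1.02 CPM), although the sum of the 16 proliferation markers was lower. Its transcript is 10.1 kb long. Hr, a histone demethylase gene outside the symbol rule, was at 3.70 and 3.49 CPM in db/db, 0.944 and 0.874 CPM in KO_db/db and 0.584 to 0.819 CPM in db/+.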
